A study of Mus musculus with 8 samples.

Results

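The baseline m6A map described here is the set of peaks that both control lists of mouse primary vascular smooth muscle cells (VSMCs) had in common. It was made from the peak lists of replicates A and B of the cells that carried the control hairpin shCTR. Intervals of A and B that overlapped by at least 1 bp were kept and joined, which left 5899 regions. These hold 6044 of the 8535 distinct intervals of A and 5980 of the 7046 of B, out of 31673 distinct intervals in the 4 lists of the series.

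The series holds 8 samples, an anti-m6A pulldown (IP) and an input for replicates A and B of each of 2 hairpins, and only the 4 shCTR samples were used. The cells were primary cultures at passage 5 to 7. They had grown out of pieces of descending aorta from C57BL/6J mice aged 8 to 12 weeks, after removal of the adventitia and the endothelium, and were infected with a lentivirus that encodes a hairpin against a plant microRNA (ath-miR-159, vector pLKO.1-2A-GFP), for 24 h and harvested 48 h after that, so the control cells too had been through viral transduction and culture. RNA was cut to fragments of about 200 nt before the pulldown. Nothing says that A and B came from separate cultures, so a spread between them may be technical.

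m6A, a methyl group on the N6 atom of adenosine, is written into messenger RNA by a complex built on METTL3, the catalytic subunit, and METTL14, which holds the RNA. WTAP, VIRMA, ZC3H13, CBLL1 and RBM15 guide the complex, the YTH proteins read the mark, and FTO and ALKBH5 can remove it. The complex acts at DRACH, a context of 5 letters that starts with any letter but C, goes on with a purine and then the AC of the modified adenosine, and ends with any letter but G, and the mark is known from other cells to gather in long internal exons and around stop codons. In VSMCs it has been studied for its part in the switch from the contractile to the synthetic state.

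The sequences below lie under some of the strongest regions of the map and under the regions of Klf4 and Pdgfra, genes that the study takes up. Each is on the transcript strand, 5′ to 3′, read from the GENCODE M21 transcripts of GRCm38. Capitals mark the DRACH nearest to the mean of the A and B summits. In Klf4 this mean falls on neither summit, since they lay 261 nt (A) and 352 nt (B) past the stop codon and the marked A at 313 nt. A match is a description of the letters there and not a mapped site.

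Usp35 (coding, chr7:97312218-97312272, minus strand): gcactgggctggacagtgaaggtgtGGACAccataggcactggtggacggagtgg
Elk4 (coding, chr1:132018287-132018341, plus strand): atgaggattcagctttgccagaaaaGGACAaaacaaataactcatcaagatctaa
Elmsan1 (coding, chr12:84172922-84172976, minus strand): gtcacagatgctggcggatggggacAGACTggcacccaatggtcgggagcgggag
Gmeb2 (3′ UTR, chr2:181253691-181253719, minus strand): agaggccactacGGACAcaggccacaggg
Foxo3 (3′ UTR, chr10:42186154-42186182, minus strand): ctaacccagcagAGACTgttagcagccct
Arhgap29 (coding, chr3:122014524-122014578, plus strand): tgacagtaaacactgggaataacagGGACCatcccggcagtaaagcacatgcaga
Mocs3 (coding, chr2:168231942-168231996, plus strand): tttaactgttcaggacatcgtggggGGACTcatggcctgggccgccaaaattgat
Parp8 (coding, chr13:116894910-116894964, minus strand): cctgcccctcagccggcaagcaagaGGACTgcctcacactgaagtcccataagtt
Usp1 (coding, chr4:98934545-98934599, plus strand): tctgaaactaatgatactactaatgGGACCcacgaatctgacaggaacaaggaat
Klf4 (3′ UTR, chr4:55527800-55527828, minus strand): caaatccaacttGAACAtgcccggactta
Pdgfra (3′ UTR, chr5:75195260-75195288, plus strand): gatacttggattGAACTttatccgtgttg

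To see how far the replicates gave the same map, the lists were first compared by rank. Fold enrichment is the authors' ratio of IP over local background at a summit, and it ran from 2.17 to 58.6 with a median of 7.85 in A and from 2.41 to 44.5 with a median of 8.03 in B. Strong peaks of either list were found in the other far more often than weak ones. Of the lowest 10% of summits of A by fold enrichment, 57.8% lay in an interval that overlapped B, and of the highest 10%, 97.9% did. In B these shares were 70.4% and 99.9%. The lists give no read totals. The pileup solved from fold enrichment and p-value (the number of overlapping fragments at a summit) had a median of 16 in each list, 19 in A and 18 in B for summits in kept intervals and 9 and 7 for the others, so single weak peaks rest on few fragments.

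**Figure D1:**
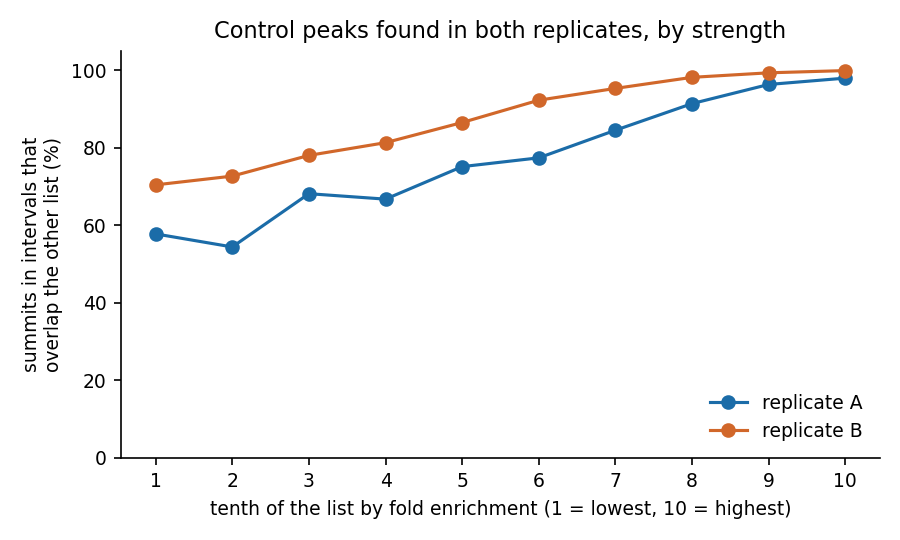
Share of summits (%) in intervals that overlap the other control list, by 10% steps of each list ranked by fold enrichment, with replicate A as blue points and B as orange points. The share goes from 57.8% to 97.9% in A, with dips to 54.4% and 66.7% on the way, and from 70.4% to 99.9% in B, and B lies above A in every step.

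Across the 5899 regions, which share transcripts and background between the lists, the rank correlation between A and B was 0.722 for fold enrichment, 0.774 for −log10 p and 0.878 for pileup. The strongest summits of A and B lay a median of 23 bp apart, and in 74.9% of regions they lay within 50 bp of each other. Agreement at the very top was looser. Of the 1009 regions in the top 10% of A and the 826 in the top 10% of B, 554 were in both, which is 54.9% of the first and 67.1% of the second. For this reason genes are ranked below by the mean of their percentiles in A and B (0 for the weakest and 100 for the strongest summit of a list), with the value in each list given for most genes. Most regions were simple, with 1 summit in each list in 3863, but 241 held 3 or more summits in both, and widths ran from 170 to 3666 bp with a median of 396 bp.

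The overlap file that the authors deposited for shCTR cut the map differently. It holds 6706 intervals with a median length of 223 bp, of which 6704 touched a region. Of the regions, 5696 (96.6%) touched at least 1 of these intervals and 800 touched several. The 203 regions without any were weak, with a median percentile of 14.0 against 62.7 for the rest.

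Where on transcripts the control summits lay was examined next, with 1 complete coding transcript per gene. The coding sequence held 57.6% ± 0.0130 (SD, n = 2) of the kept summits and the 3′ UTR 25.5% ± 0.539, whereas the 5′ UTR held 2.12% ± 0.0854 and introns 4.86% ± 0.200. A further 2.57% ± 0.0728 lay in exons of noncoding genes and 2.78% ± 0.101 between genes. Against the length of these parts in the same transcripts, coding sequence was above its share (67.6% of the transcript summits, 54.6% of all positions) and both UTRs were below theirs (29.9% against 38.4% for the 3′ UTR, 2.49% against 6.999% for the 5′ UTR). Summits that the other replicate lacked were placed otherwise, with 18.5% ± 1.89 in introns and 12.5% ± 1.29 between genes. Kept summits lie in intervals that A and B share, so the SD of a kept share does not measure how far the whole lists agree. Over all summits of a list the coding share was 52.3% in A and 55.1% in B.

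The region around the stop codon was the densest part of the control map. Within 200 nt of the stop codon lay 26.9% ± 0.492 (SD, n = 2) of the transcript summits, 26.6% in A and 27.3% in B, against 9.76% of all positions in the same transcripts. The first 100 nt after the stop codon held 7.31% in A and 7.52% in B, which is 3.01 and 3.09 times the share of all positions. Density fell off on both sides but not alike. On the coding side it came back to about the share of all positions, with ratios from 0.875 to 1.10 between 1500 and 700 nt before the stop codon, and on the 3′ UTR side it went well below, to 0.162 and 0.231 of that share at 1400 to 1500 nt. The start of the coding sequence was thin, with 2.92% ± 0.205 of summits in its first 200 nt against 4.96% of positions.

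**Figure D2:**
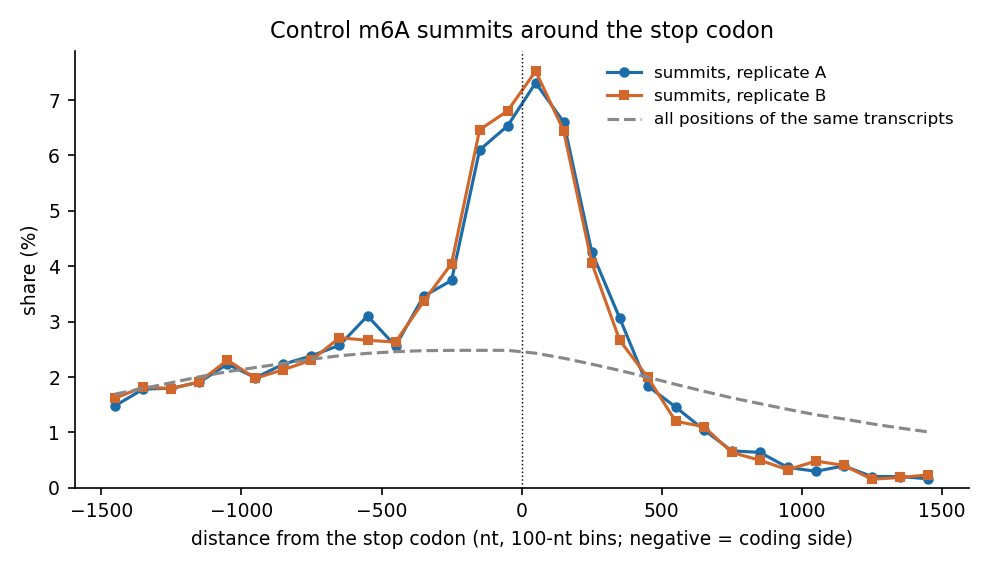
Share (%) of transcript summits in 100-nt bins by distance from the stop codon (nt, negative on the coding side), for replicate A (blue) and B (orange), with the share of all positions of the same transcripts as a dashed line. Both lists peak in the first 100 nt after the stop codon, at 7.31% and 7.52%, and fall under the dashed line from 400 nt on.

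Short exons were nearly empty. Of the transcript summits, 98.4% ± 0.0602 lay in exons of 400 nt or more, which hold 74.2% of the positions, and for coding summits the values were 98.1% ± 0.0317 and 67.2%. Among exons between the first and the last, those of 100 to under 200 nt held 12 of 2294 summits in A and 7 of 2002 in B (0.436% ± 0.123) against 26.1% of positions, and those under 100 nt held 0 in both lists against 6.78%. Internal exons of 200 to under 400 nt were also low, with 3.17% ± 0.173 against 11.7%. From 400 nt on the order turned, with 39.6% ± 0.351 of summits against 19.2% of positions in internal exons of 400 to under 1000 nt. Close to a splice junction, less than 100 nt away, lay 3.35% ± 0.369 of summits against 28.0% of positions.

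**Figure D3:**
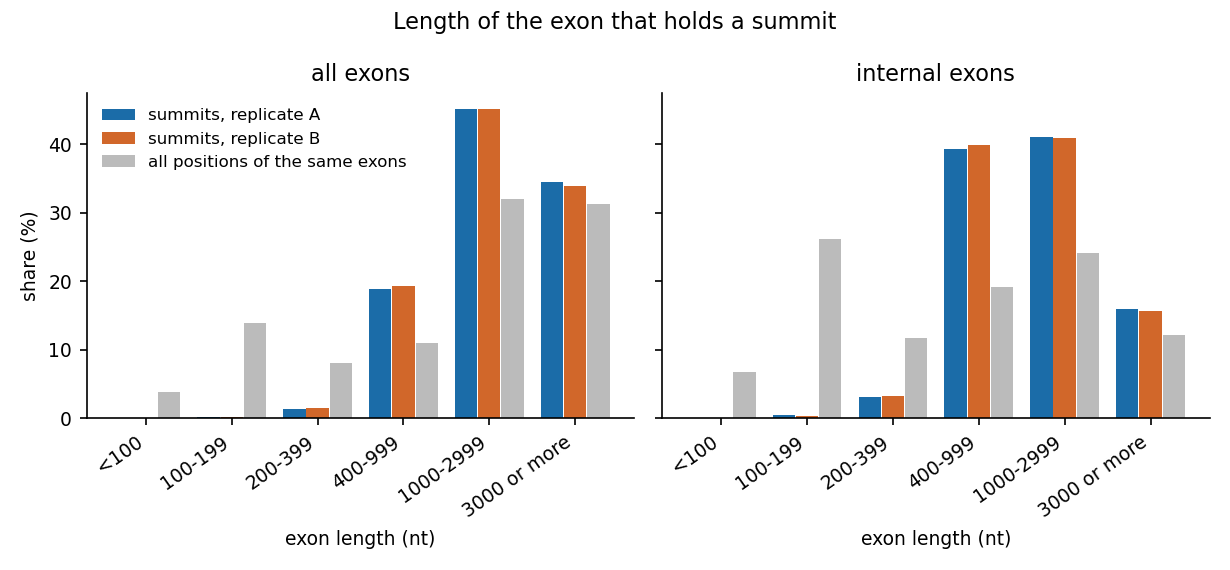
Share (%) of summits in exons of each length class (nt) for replicate A (blue bars) and B (orange bars), beside the share of all positions of the same exons (grey bars), for all exons (left) and internal exons (right). Internal exons of 100 to under 200 nt hold 26.1% of positions but 0.436% of summits, and those of 400 to under 1000 nt hold 39.6% of summits on 19.2% of positions.

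Peaks were called on the genome, where a fragment that crosses a junction is split. The shortest interval was 141 bp in A and 170 bp in B, so the caller could hardly report a peak inside the smallest exons, and the part of this in the junction and exon values was not tested. With positions limited to exons of 400 nt or more and at least 100 nt from a junction, the share within 200 nt of the stop codon was 26.3% ± 0.326 (SD, n = 2) against 12.2%, which is 2.15 times in A and 2.17 times in B.

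Sequence around the summits was read in the same way on the transcript strand. A DRACH with its A within 50 nt was present at 96.3% ± 0.309 (SD, n = 2) of summits and at 87.0% of all positions, so its presence alone says little about a position. Of the 18 forms of DRACH, GGACT stood furthest above its share, with 23.2% ± 1.06 of summits against 11.1% of positions. GGACA followed with 26.1% ± 1.19 against 14.0%, AGACT with 20.6% ± 0.720 against 11.6%, and GAACT with 18.8% ± 0.360 against 10.7%. The form TAACA was below its share, with ratios of 0.869 in A and 0.842 in B, as were the other two that start with TAAC, whose ratios ran from 0.876 to 0.950. These forms differ in single letters and none contains another, but several can lie in the same window. In the 3′ UTR, GGACT was at 26.8% ± 1.43 of summits against 12.6% of 3′ UTR positions, and in coding sequence at 21.3% ± 0.888 against 11.8%.

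Several of these shares were higher among stronger summits. From the lowest to the highest 20% of a list by fold enrichment, the share within 200 nt of the stop codon went from 22.1% ± 0.912 to 31.5% ± 0.951, and that with GGACT from 15.9% ± 1.5 to 28.7% ± 2.73 (SD, n = 2). DRACH went from 93.0% ± 0.346 to 98.4% ± 0.241. The share less than 100 nt from a junction went the other way, from 6.87% ± 0.665 to 1.39% ± 0.0285. The same shares of all positions hardly moved between them, for example from 10.8% to 11.3% for GGACT. The coding share of transcript summits went from 70.6% ± 1.06 to 65.4% ± 1.77, and that of all positions from 57.5% to 52.9%. Among the DRACH forms, AAACC (10.4% ± 0.931 and 10.2% ± 1.08) and TGACC (13.6% ± 1.12 and 12.01% ± 0.114) were no higher in the strongest 20%. Introns held 6.67% ± 1.41 of the weakest 20% and 2.70% ± 0.0288 of the strongest 20%.

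To find which transcripts carried the map, each region was given to a gene when the strongest summits of A and B both lay in exons of that gene and of no other, which was so for 5133 regions (87.0%). They fell on 3731 genes, 3594 protein-coding and 137 noncoding. Of the 21951 protein-coding genes annotated, 16.4% had a region. A single region was the rule, in 2786 genes, 668 genes had 2, 243 had 3 or 4, and 34 had 5 or more. A gene without a region can be unmethylated or little expressed in these cells, and a peak list cannot tell these apart.

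Genes with a region were long, with a median exon length of 5.78 kb against 3.50 kb for all protein-coding genes. Of genes with 1 to 2 kb of exon 4.39% had a region, of those with 2 to 4 kb 11.5%, of those with 4 to 8 kb 23.5%, and of those with 16 kb or more 48.9%. The length of the longest exon drew a like line. Of the 3119 genes whose chosen transcript has no exon of 400 nt, 36 (1.15%) had a region.

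Ahnak, a giant scaffold protein of the membrane and cytoskeleton whose longest exon has 17498 nt, had the most regions of any gene, 13, with 38 kept summits in A and 36 in B. All 13 lay in coding sequence and none within 200 nt of the stop codon. By fold enrichment 8 of the 13 were below the 50th percentile, with a median percentile of 36.3 and fold enrichments from 2.90 to 10.8 in A and from 2.95 to 13.6 in B. The background under them was high, at a median of 11.4 fragments in A and 8.81 in B. The strongest Ahnak summits had pileups of 184 in A, the highest of that list, and 163 in B.

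Fat4 and Macf1 had 12 regions each. Fat4, like Fat1 with 9, is an atypical cadherin, and Macf1, like Dst with 9, links actin to microtubules. Ahnak2, a relative of Ahnak, had 10, and they were stronger than those of Ahnak, with a median percentile of 83.3 against 36.3. Kmt2d, which methylates histone H3, Peak1, a pseudokinase of the cytoskeleton, and Spen, a corepressor, had 8 each. Bod1l, Cspg4 (the NG2 proteoglycan, found on pericytes and smooth muscle) and Map1b (a microtubule protein) had 7, and 2900026A02Rik, Akap9 (an anchor for protein kinase A) and Ankrd50 had 6. Heg1, Map1a and Zfhx3 also had 6 and were left out by alphabetical order alone.

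A high number did not mean high strength. The 7 regions of Map1b were all below the 50th percentile, and its best reached only 37.6. Ahnak, Fat4, Macf1, Kmt2d, Cspg4, 2900026A02Rik and Akap9 had no region at the 90th percentile or above. Spen had 3 such regions, the best at 99.4 with a fold enrichment of 28.5 in A and 24.5 in B, and the weakest of the 7 regions of Bod1l was at 62.5. No gene was both among the 15 with the most regions and among the 15 with the strongest. Over protein-coding genes the median percentile of the strongest region was 63.7 in the 2670 genes with 1 region and 89.0 in the 33 with 5 or more, but more regions give more draws for a maximum, and the mean percentile of a gene's regions was 63.7 and 57.6 in the same classes.

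**Figure D4:**
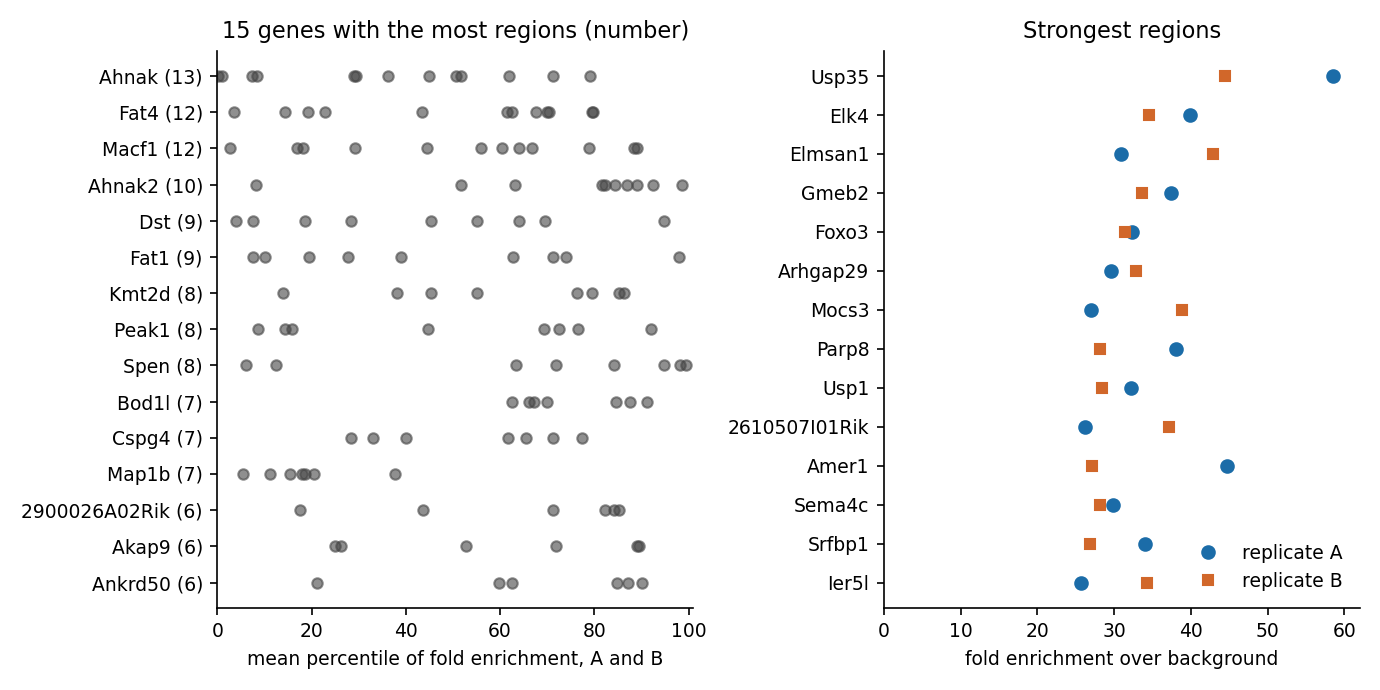
Left: the mean percentile in A and B of each region of the 15 genes with the most regions (number in brackets), with 1 grey point per region. Right: fold enrichment over background of strongest regions named in the text in replicate A (blue) and B (orange). The regions of Ahnak spread from 0.156 to 79.1, those of Map1b reach at most 37.6, and Usp35 has the highest fold enrichment in both lists.

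Per kilobase of exon the order was another. Among genes with at least 3 regions, Insyn1 (1.29 regions per kb), Cd248 (1.15), Zfp948 (1.13) and Zfp809 (1.01) came first. Cd248 is endosialin, a surface protein of pericytes and activated mesenchymal cells, and its best region had a mean percentile of 93.3. None of the 15 genes with the most regions was among the 15 with the most per kb.

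The strongest region of the map lay in the coding sequence of Usp35, a deubiquitinase, at chr7:97312050-97312387. Its fold enrichment was 58.6 in A and 44.5 in B, the highest value of both lists, from pileups of 86 and 106 fragments over backgrounds of 0.485 and 1.41. The summits lay at -1026 and -1031 nt from the stop codon, on its coding side. Elk4, a partner of serum response factor (SRF), was next at chr1:132018041-132018446, with 39.9 in A and 34.6 in B. Elmsan1, a subunit of a histone deacetylase complex, followed at chr12:84172753-84173728 with 30.9 and 42.8.

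The other strongest regions included those of Gmeb2, Foxo3, Arhgap29, Mocs3, Parp8, Usp1, 2610507I01Rik, Amer1, Sema4c, Srfbp1 and Ier5l. Foxo3 is a forkhead factor held in check by AKT (fold enrichment 32.3 in A, 31.5 in B), Arhgap29 is a GTPase-activating protein (29.5 and 32.8), and Amer1 takes part in Wnt signalling (44.8 and 27.2). Srfbp1 binds SRF (34.0 and 26.8), and 2610507I01Rik is a noncoding gene (26.3 and 37.1). Over the 15 strongest regions, fold enrichment ran from 25.7 to 58.6 in A and from 26.8 to 44.5 in B. Amer1 and Parp8 were much higher in A and Mocs3 and Elmsan1 in B, so the order within the 15 differed between the lists.

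Of these 15 regions, 10 lay in coding sequence, 3 in the 3′ UTR (Gmeb2, Foxo3 and Sema4c), 1 in a noncoding exon, and 1, in Ier5l, had its summits on either side of the stop codon. Both summits were within 200 nt of the stop codon in 6 of them. For 13 it was the only region of the gene. All stood on a low background, from 0.162 to 1.94 fragments in A and from 0.375 to 1.41 in B. Ranking by −log10 p, which favours high pileup, kept 3 of these 15 genes, with Usp35 still first, and ranking by pileup kept 0. The lowest of the 15 then stood at percentiles of 98.1 and 90.3.

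Named groups of genes were then counted against the 16.4% of protein-coding genes with a region and the median percentile of 70.5 over those genes' strongest regions. The lists were drawn up with earlier results of these data known, and long genes and expressed genes have more chance to be counted, so the counts are descriptions. Pairs of values without another name are the percentiles by fold enrichment, in A and then in B, of a gene's strongest region. As a second yardstick, 18.8% of protein-coding genes with a region had their strongest one at the 90th percentile or above.

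**Figure D5:**
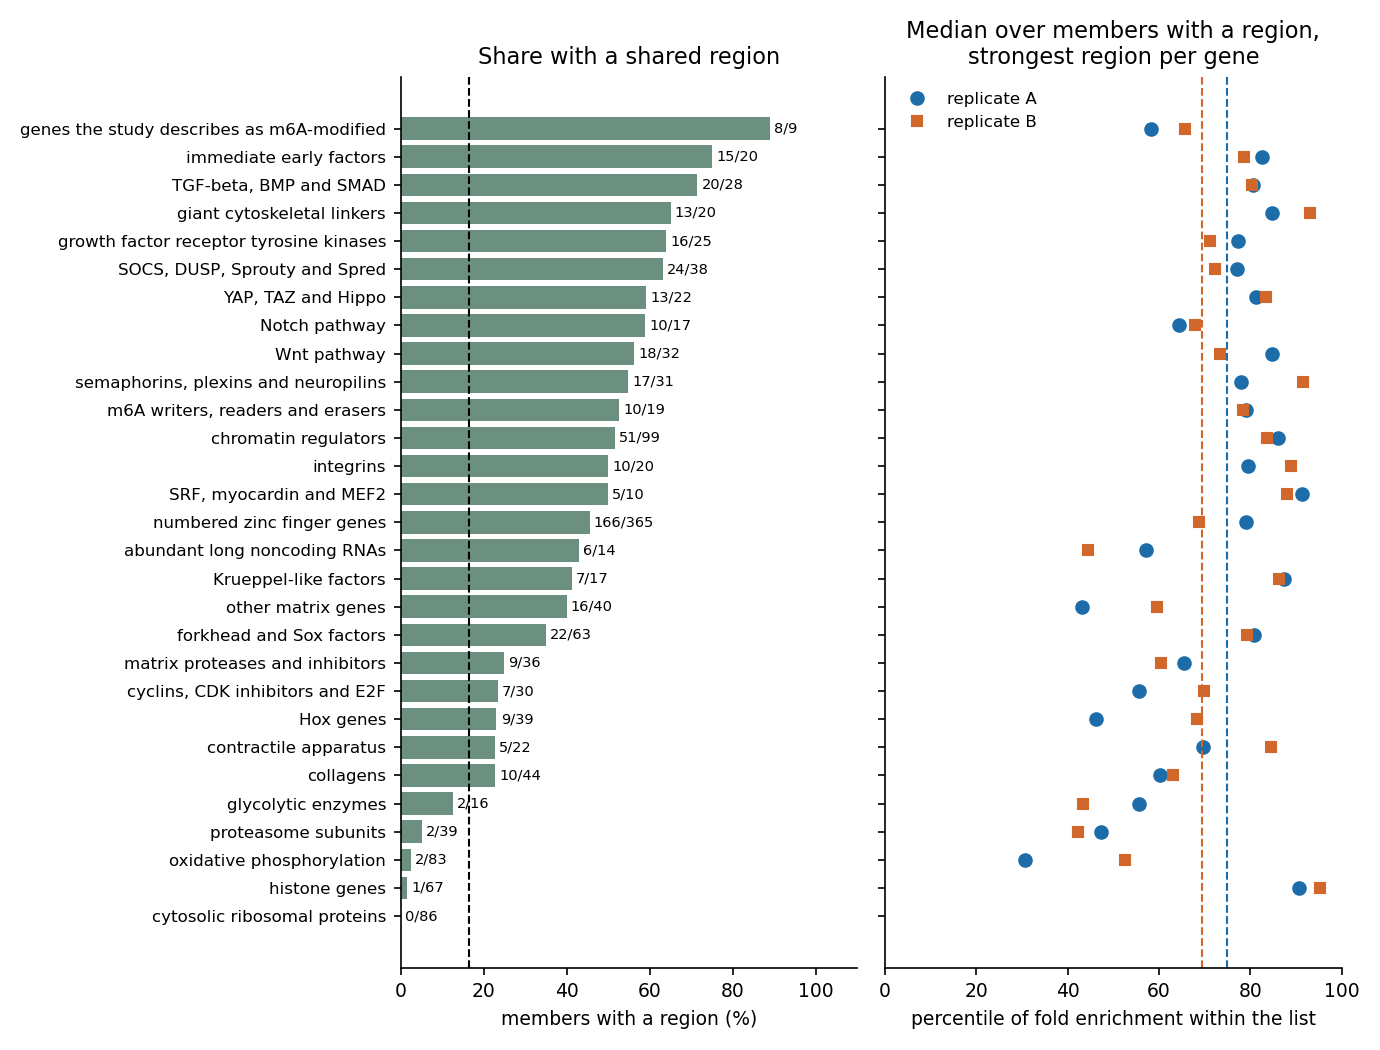
Left: members of each gene list with a shared control region (%), with the number of how many beside each bar and the 16.4% of all protein-coding genes as a dashed line. Right: the median percentile of fold enrichment over members with a region, in replicate A (blue) and B (orange), with the medians of all protein-coding genes in each list, 75.0 in A and 69.4 in B, as dashed lines of the same colours. The genes that the study describes (8 of 9) and the immediate early factors (15 of 20) are on top, and the ribosomal proteins, with 0 of 86, are at the bottom. The dashed lines do not apply to the long noncoding RNAs, whose own background is 0.409%.

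Immediate early factors, which serum and growth factors switch on within minutes, had a region in 15 of 20, although their median exon length is 3.23 kb and only 11.5% of all genes with 2 to 4 kb of exon had one. Jun, a subunit of AP-1, had a region at chr4:95049823-95051636 with percentiles of 97.2 and 96.9 in A and B and pileups of 103 and 84. Jund (94.7 and 98.6) and Fosl2 (92.9 and 98.9), also of AP-1, stood as high. Egr2, Fosb and Nr4a1 had 2 regions each, with mean percentiles of 83.7, 83.6 and 67.7 at their best, and Egr2 differed between the lists (96.1 and 71.3). The median over members with a region was 80.1, and 4 of the 15 were at 90 or above.

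Growth factor signalling and its brakes were also often covered. Receptor tyrosine kinases had a region in 16 of 25. Igf1r, the receptor of IGF1, had 4, the best at 99.9 and 98.4 with pileups of 114 and 108, near the end of its coding sequence. Flt1, a VEGF receptor, had 1 at 95.2 and 97.8. Fgfr1 and Ddr2 had 2 each of lower strength, with mean percentiles of 48.2 and 44.4. Of the SOCS, DUSP, Sprouty and Spred genes, which dampen cytokine and ERK signalling, 24 of 38 had a region. Dusp16 had 3 (96.7 and 90.2), Dusp4 and Socs6 had 2 (81.8 and 84.5, and 94.4 and 93.6), and Socs5 (96.0 and 97.6) and Spred1 (97.1 and 94.1) had 1.

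TGF-beta, BMP and SMAD genes had a region in 20 of 28, with a median percentile of 80.8. Smad3, which carries the TGF-beta signal, and Smad7, which blocks it, had 3 each, their best at 88.7 and 97.1 and at 95.6 and 97.6. Gdf6, a BMP, stood at 99.4 and 99.4, Tgfb2 at 98.6 and 99.2, and Inhba, an activin subunit, had 2 regions with 92.6 and 92.1. Of these 20 genes, 7 were at 90 or above.

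Other signalling pathways followed. Notch genes had a region in 10 of 17, with a median percentile of 65.8, and YAP, TAZ and Hippo genes in 13 of 22, with 79.6. Wnt genes had 18 of 32, with 77.2, and semaphorins, plexins and neuropilins 17 of 31, with 84.6 (67.0 in A taken alone, just under the 67.6 of all genes there). Jag1, a Notch ligand, stood at 93.2 and 97.6, and the Notch coactivators Maml1 and Maml2 had 4 and 3 regions, with 60.1 and 84.5 and with 97.0 and 99.4. The Hippo kinase Lats2 stood at 97.4 and 93.2, Lats1 had 3 regions with 87.5 and 83.1, and the angiomotins Amotl1 and Amotl2 were at 95.2 and 86.5 and at 89.2 and 95.6. Of the Wnt receptors Fzd4 was the strongest, at 96.9 and 95.0, while Fzd1, Fzd7 and Fzd8 had 3 regions each with mean percentiles of 66.4, 82.8 and 80.9. Apc, which helps to degrade beta-catenin, and Bcl9l, a coactivator of beta-catenin, had 2 each, with 96.4 and 94.1 and with 94.7 and 95.1. Sema3e was at 98.8 and 95.5, Sema3f at 97.7 and 96.9, and the plexin Plxna2 had 3 regions with 88.4 and 99.1.

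The SRF, myocardin and MEF2 list, whose members act on contractile genes, had a region in 5 of 10. Beside Elk4, the SRF coactivators Mrtfb (2 regions, 93.1 and 98.5) and Mrtfa (91.2 and 88.1) were strong, and Elk3 was at 45.5 and 36.4. Of the 17 Krueppel-like factors 7 had a region, with a median of 86.8. Klf13 was at 98.1 and 99.1 and Klf2, a factor of quiescent vessels, at 98.8 and 87.4, and Klf7 and Klf9 had 2 regions each with 87.4 and 86.3 and with 84.7 and 72.6. Forkhead and Sox factors had a region in 22 of 63, led by Foxo3 and Sox9 (98.8 and 95.0), with 2 regions in Foxc1 (83.3 and 99.5), Foxc2 (66.6 and 82.2) and Foxk1 (94.9 and 94.2) and 1 in Foxk2 (95.1 and 95.7). Hox genes, with a median exon length of 2.47 kb, had 9 of 39 and a median of 53.1, with Hoxa3 at 93.3 and 98.4, Hoxb4 at 96.3 and 83.2, Hoxa7 at 73.8 and 71.1 and Hoxa2 at 36.2 and 7.86.

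Numbered zinc finger genes, most of them DNA-binding repressors, had a region in 166 of 365, or 45.5%, against 23.5% of all genes of 4 to 8 kb, the class that holds their median length of 4.35 kb. The longest exon of their transcripts is long too, with a median of 2545 nt against 1207 nt. Their strength was ordinary, with a median of 70.6 and 31 of 166 (18.7%) at 90 or above. Zfp462 and Zfp516 had 5 regions (88.8 and 88.2, and 76.6 and 92.4), Zfp407 had 4 (97.7 and 87.7), and Zfp503 (99.6 and 99.6), Zfp827 (99.3 and 99.8) and Zfp703 (99.5 and 99.3) had the strongest. Chromatin regulators had a region in 51 of 99 and 113 regions in all, with a median of 85.6 and 17 of 51 at 90 or above. Of all genes with 8 to 16 kb of exon, the class of their median of 8.44 kb, 36.1% had a region. Chromatin genes with a region had 2.22 regions on average, against 1.38 over protein-coding genes, so their strongest had more draws. Beside Kmt2d, the histone methyltransferases Nsd1 (99.8 and 98.7) and Ash1l (89.5 and 96.2) had 5 each. Chd7, a remodeller, was at 98.6 and 98.8, and Hdac4, a deacetylase that binds MEF2, at 99.1 and 97.9.

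Transcripts of the m6A machinery itself had regions in 10 of 19 members. The catalytic core was not among them, since Mettl3 and Mettl14 had no summit in either list, nor had Mettl16, Alkbh5, Ythdc2 or Igf2bp1, Igf2bp2 and Igf2bp3. Among the partners of the writer complex, Rbm15 had 3 regions with a best of 97.7 and 98.9, Rbm15b had 2 (91.9 and 92.8), Zc3h13 had 3 (68.0 and 78.4), Virma 2 (54.4 and 78.5) and Wtap 2 (7.39 and 52.5). Wtap thus differed widely between the lists, and its pileups were 8 and 14. Cbll1 had 1 summit in A and none in B. Among the readers, Ythdf2 had 3 regions (88.7 and 93.0), Ythdc1 2 (84.1 and 40.9), and Ythdf3 (99.4 and 91.5) and Ythdf1 (60.5 and 53.8) 1 each. The demethylase Fto had 1 region, at 49.7 and 1.71, with pileups of 22 and 10.

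Of 22 contractile genes 5 had a region, or 22.7%, which is above the 16.4% of all protein-coding genes and near the 23.5% of genes with 4 to 8 kb of exon, the class of their median of 5.00 kb. Acta2, Tagln, Cnn1, Actg2, Myl9, Mylk, Smtn, Tpm1, Tpm2, Des, Flna, Vcl, Csrp1, Pdlim3 and Pdlim7, most of which encode actin, myosin chains, their regulators or their anchors, had no summit in either list. Ldb3 had 2 summits in A and none in B. Itga8, an integrin of smooth muscle, stood at 95.9 and 96.0, with pileups of 42 and 28. Lmod1, which starts actin filaments, had 2 regions with 86.3 and 98.2, Synm, an intermediate filament protein, 2 with 69.6 and 84.6, and Cald1, an actin-binding regulator, 2 with 15.97 and 22.3. By −log10 p Cald1 stood at 85.7, with pileups of 77 and 76 over backgrounds of 13.4 and 12.04. The region of Myh11, the smooth muscle myosin, at chr16:14194851-14195174, stood at 21.8 and 14.6, with pileups of 33 and 10.

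Matrix genes ranked differently by fold enrichment and by p-value. Of 44 collagens 10 had a region (22.7%) and of 40 other matrix genes 16 (40%). Of all genes with 4 to 8 kb of exon, the class of both median lengths (7.54 and 6.93 kb), 23.5% had one. The median percentiles by fold enrichment were 59.9 and 48.0, and none of the 26 genes with a region was at 90 or above. Ranked by −log10 p the medians were 79.9 and 82.1, against 69.0 over protein-coding genes. Thbs1, thrombospondin 1, had 3 regions and pileups of 128 and 127 over backgrounds of 18.8 and 14.0, which put it at 43.7 by fold enrichment and 98.0 by −log10 p. Col8a1 had 2 regions, at 85.9 and 93.4 with pileups of 122 and 119. Col6a3 (2 regions), Col6a1 and Col12a1 had mean percentiles of 80.1, 76.3 and 23.0. Emilin1, an elastic fibre protein, had 3 regions (77.8 and 96.0), and Loxl1, which crosslinks elastin, and Tnc, tenascin C, 1 each (85.8 and 92.0, and 81.1 and 87.3).

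Proteases and inhibitors of the matrix had a region in 9 of 36 (25%). This was near the 23.5% of all genes with 4 to 8 kb of exon, the class of their median of 5.65 kb. Adamts5 had 2 with 94.5 and 95.4, Adamts1 1 with 94.6 and 90.4, and Mmp14 and Mmp16 2 each with mean percentiles of 69.4 and 63.4. Integrins had 10 of 20, with Itga5, a chain of the fibronectin receptor, at 93.1 and 94.8, and Itga9, Itga3, Itga4 (2 regions) and Itga11 at mean percentiles of 90.9, 90.1, 81.7 and 62.2. The giant linker list had 13 of 20 (65%) with 74 regions. Of all genes with 16 kb or more of exon, the class of its median of 17.3 kb, 48.9% had a region. The list holds Ahnak, Ahnak2, Macf1, Dst and Fat1, which are among the 15 genes with the most regions.

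The genes that the study describes as m6A-modified were looked up by name. Since they were picked on these samples, their coverage of 8 of 9 is no independent evidence. Klf4, a driver of the synthetic state, had 2 regions, the stronger in its 3′ UTR at chr4:55527618-55528365 with fold enrichments of 14.1 and 14.6 in A and B and percentiles of 87.4 and 87.6.

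The PDGF receptors both had regions in their 3′ UTR. Pdgfra had 1 with percentiles of 96.8 and 90.9 and pileups of only 28 and 18, and Pdgfrb had 2, the stronger with percentiles of 86.2 and 72.7 and pileups of 62 and 38. Fbln2, fibulin 2, had 3 regions, the best with fold enrichments of 6.57 and 9.41 and at 89.2 by −log10 p. Col5a2 had 1 with 6.31 and 9.47, and Lpar2, a receptor for lysophosphatidic acid, 1 with 7.92 and 5.46 from pileups of 8 and 6. The region of Col1a1 was weak by fold enrichment, 5.04 and 4.16, which is a percentile of 11.9 and 3.16, but its pileups were 66 and 48 over backgrounds of 12.3 and 10.8, and by −log10 p it stood at 67.3. Col18a1 had 2 summits in B and none in A, so it has no shared region.

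Of 86 cytosolic ribosomal protein genes 0 had a region in both lists (1 in A taken alone), of 83 oxidative phosphorylation genes 2 (2.41%), and of 39 proteasome subunits 2 (5.13%). Of 16 glycolytic enzymes 2 had one, or 12.5%, near the 11.5% of all genes with 2 to 4 kb of exon, the class of their median of 3.74 kb. Cox7a2l and Ndufs4 stood at mean percentiles of 41.9 and 41.3, Psmd5 and Psmd7 at 45.1 and 44.5, and the hexokinases Hk1 and Hk2 at 57.5 and 41.5. The median longest exon was 305 nt in the ribosomal list, 301.5 nt in the oxidative phosphorylation list, 395 nt in the proteasome list and 726 nt in the glycolytic list, against 1207 nt over all genes. An exon of at least 400 nt was present in 39.5% of the ribosomal and 37.8% of the oxidative phosphorylation genes, and of all genes without one 1.15% had a region. Of all genes with 1 to 2 kb of exon, which holds the ribosomal median of 1.74 kb, 4.39% had a region. Of 67 histone genes 1 had a region, the linker histone Hist1h1c (90.7 and 95.2), and 3 had one in A taken alone, with a median percentile of 50.5. Of all genes with less than 1 kb of exon, the class of the histone median of 0.539 kb, 0.823% had a region. The histone share of 1.49% rests on 1 gene and cannot be told apart from that. Cyclins, CDK inhibitors and E2F factors had 7 of 30 (23.3%). This was near the 23.5% of all genes with 4 to 8 kb of exon, the class of their median of 4.15 kb. Among them were Cdkn2b, a CDK inhibitor, at 86.3 and 89.9, E2f3 (2 regions) at 95.9 and 72.0, Rbl2 at 66.7 and 69.8 and Ccnd2, cyclin D2, at 38.8 and 31.0 (91.3 by −log10 p).

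Genes not annotated as protein-coding made up 137 of the 3731 genes with a region, which is 0.409% of the 33499 such genes and 4.35% of the 805 with 4 to 8 kb of exon (35 genes). Their strongest regions had a median percentile of 57.6. Of 14 long noncoding RNAs listed for their abundance, with a median exon length of 7.14 kb, 6 had a region, with a median percentile of 42.5. Tug1 had 5 regions with a best of 94.8 and 89.4, and Gm37494 and Peg13, outside that list, had 3 each. Malat1, an abundant nuclear RNA, had 2 regions with pileups of 159 and 173 over backgrounds of 25.4 and 18.8, which gave fold enrichments of 6.06 and 8.77. Neat1, Kcnq1ot1, Mir22hg and Rian had 1 each, and the lists differed on Rian, at 85.2 and 1.75. Gas5, H19, Meg3 and Carmn, a noncoding RNA of smooth muscle, had no summit in either list.

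The label was checked with marker genes, with the limit that a peak list shows methylated fragments and not transcript levels. Of 8 smooth muscle markers 3 had a region (Itga8, Lmod1 and Myh11), and Acta2, Tagln, Cnn1, Smtn and Mylk had no summit. Of 8 endothelial markers 3 had a region, although the endothelium had been scraped off. They were Cdh5, VE-cadherin, with percentiles of 68.7 and 86.5 and pileups of 93 and 109 over backgrounds of 8.41 and 6.75, Kdr with 75.7 and 29.0 and pileups of 11 and 6, and Pecam1 with 29.4 and 12.2, and the other endothelial markers had no summit. Of 8 fibroblast markers Pdgfra and Cd34 (8.71 and 4.03) had a region, and of 8 macrophage markers 0 had a summit in either list. The part of other cell types in the map was not tested.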

How the data were processed

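m6A-RIP-seq peak lists of the shCTR replicates A and B were used. Per the submitters' processing notes the authors used STAR, SAMtools and MACS2 on mouse GRCm38 (mm10), and peaks were called for every IP library with its matched input as control. Versions and options are not given in the sources used here. The deposited lists give intervals and summits, fold enrichment (a ratio), and −log10 of the p-value and q-value, and the smallest −log10 q was 2.01 in each. Replicates were not pooled. The authors' overlap file, made with BEDTools, gives intervals only. Of the knockdown lists only the number of intervals was used.

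IP pileup and background at each summit were solved from the fold enrichment and p-value by the Poisson model of MACS2 (largest error 0.000151 in −log10 p) and cover counting error only. Summits were placed on GENCODE M21 (55450 genes, 21588 complete coding transcripts, the longest coding sequence per gene). Shares of all positions were counted over the same transcripts, weighted by their summits. Percentiles are ranks of fold enrichment within a list. Values are mean ± SD over the 2 lists (n = 2), with no test because no groups were compared. Functions were tested on simulated data. Alternatives were another overlap rule, a stricter q, interval midpoints, other windows, other measures of strength and either replicate alone.

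Genes were named by rule: the 15 genes with the most regions, the 15 strongest regions, up to 3 members with the most and 3 with the strongest regions of each of 29 lists, and all members of the contractile, m6A and study lists. Members and lists were chosen with earlier results of these data known. The scripts ran under Python 3.11.15 (scipy 1.17.1, pandas 2.3.3, numpy 2.4.6). Some genes that the rule selects are not reported here.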

Additional observations from a re-analysis of the deposited data

How the results depend on the processing

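No paired analysis was possible because a single group was described and no result comes from a test. Counts of regions and of genes stayed within 1.5 times under every alternative. The 5899 regions became 5260 with a reciprocal overlap of 50%, 5133 with a −log10 q of at least 5, and 7046 to 8535 with either replicate alone, and the 3731 genes became 3397 to 4635. Of 32 alternatives to counts and shares, 16 moved a share by more than its SD over the 2 lists. These 16 include the other windows, whose shares differ by definition. The SD used as the limit came from lists already cut to shared intervals. The share within 200 nt of the stop codon (26.9%) was 28.1% with interval midpoints, 27.6% with the stricter q and 27.8% with the reciprocal overlap, 26.8% with either replicate alone (26.79 to 26.84), and 14.1% and 41.2% in windows of 100 and 400 nt, where all positions give 4.94% and 19.1%. The coding share (57.6%) was 55.0% with midpoints, 58.3% with the stricter q, 57.8% with the reciprocal overlap and 52.3% to 55.1% with either replicate alone. The 3′ UTR share (25.5%) was 26.7% with midpoints, 26.2% with the reciprocal overlap and 24.2% to 25.1% with either replicate alone, and the stricter q moved it by less than its SD. GGACT (23.2%) was at 12.7% and 37.0% of summits within 25 and 100 nt, against 5.81% and 20.5% of positions, at 22.0% to 23.6% with either replicate alone and at 24.1% with the stricter q. Of the 15 genes with the most regions 9 stayed by number of summits, and of the 15 with the strongest regions 7 stayed by the mean over summits. Of the 28 protein-coding gene lists, 23 were above the share of all protein-coding genes, and 0 changed side with the stricter q or either replicate alone. That share takes no account of gene length. The contractile (22.7%), collagen (22.7%), cyclin (23.3%) and matrix protease (25%) lists were near the 23.5% of genes with 4 to 8 kb of exon, the class of their medians. By −log10 p, 6 of 27 lists changed side of the median percentile, upward for the collagen, other matrix, study, Notch and m6A lists and downward for the zinc finger list. The medians of 3 lists changed side with B alone (zinc finger 64.8, m6A 78.4 and cyclins 69.8, against 65.3 over all genes) and those of 5 with A alone (contractile 61.1, zinc finger 65.2, m6A 79.0, semaphorins 67.0 and histones 50.5, against 67.6), while the stricter q changed 0. Oxidative phosphorylation genes with a region went from 2 to 1 with the stricter q. The cause of these changes was not tested. The effect of depth was not tested either, since the lists give no read totals, and the median pileup of summits outside the shared regions was 9 in A and 7 in B.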
